A study of Mus musculus with 4 samples.

Results

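Cadherins and regulators of the epithelial-mesenchymal transition (EMT) were followed in induced epiblast stem cells (iEpiSCs) that lack c-Jun and in wild-type iEpiSCs. The set held 10 of the 29267 genes in the deposited tables, taken by symbol: the cadherins Cdh1, Cdh2, Cdh3 and Cdh11, the transcription factors Snai1, Zeb1, Zeb2 and Twist1, the intermediate filament gene Vim and the matrix gene Fn1. The c-Jun-/- group and the wild-type group each held 2 libraries, numbered 2 and 3. In both groups mouse embryonic stem cells had been kept in N2B27 with 2i and LIF, replated, and moved 8 hours later to a medium with 20 ng/ml Activin A, 20 ng/ml bFGF, 2 µM XAV939 and 2.5 µM IWR-1, the last pair being inhibitors of Wnt signalling. Colonies appeared after 4 to 5 days. The labels give neither the deleted part of Jun nor the clones or cultures behind the replicates, so the genotype cannot be told apart from the cell line, and the p-values rest on differences among libraries whose origin may be technical.

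Classical cadherins are adhesion proteins that bind the same cadherin on the neighbouring cell, and catenins tie their tails to actin. In a cadherin switch an epithelial cell loses E-cadherin and gains N-cadherin, as epiblast cells do when they leave through the primitive streak. Snail, ZEB and Twist proteins drive this change, the first of these families largely by repressing Cdh1 through E-box sequences. Epiblast stem cells stand for the epithelial epiblast, and those studied here also expressed the streak gene T.

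Upstream sequence is shown for Snai1 and Zeb2, the genes in which the search below found a match. Snail factors read the E-box, and dimers that contain c-Jun read AP-1 sites. Cdh1 was not among the genes with a window. RefSeq windows of 250 bases before a transcription start (build GRCm38.p6) were matched for 4 of the 10 genes, Snai1, Zeb2, Twist1 and Vim, and gave 7 windows. Both strands were searched for the E-box CAGGTG or CACCTG, the AP-1 site TGACTCA or TGAGTCA, and the CRE TGACGTCA; none of these words contains another. An E-box match was found in 1 of the 7 windows and an AP-1 match in 1, with 0 CRE matches. Over all 32851 RefSeq windows of this length, 17.2% held the E-box, 4.46% the AP-1 site and 1.55% the CRE. The window with the E-box was that of Snai1, chr2:167537945-167538194 on the plus strand, where the match in capitals began 126 bases before the start.
Snai1 upstream: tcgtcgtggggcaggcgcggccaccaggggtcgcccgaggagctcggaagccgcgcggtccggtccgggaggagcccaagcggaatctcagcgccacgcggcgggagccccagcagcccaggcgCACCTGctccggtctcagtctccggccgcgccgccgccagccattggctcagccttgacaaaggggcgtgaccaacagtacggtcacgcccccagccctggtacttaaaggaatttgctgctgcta
The window with AP-1 matches lay before the innermost annotated start of Zeb2, on the minus strand, and held a pair of them in capitals below. The 29 bases around the match 189 bases before the start are chr2:45110449-45110477, and those around the match 132 bases before it are chr2:45110392-45110420. Both stretches also overlap annotated exons of Zeb2 transcripts that start further out.
Zeb2 site 189 before start: ccgcctagcctTGAGTCAagcagtcttac
Zeb2 site 132 before start: gtcaggagttaTGACTCAttttgaagatg
These matches describe the letters of the windows and were not tested for binding.

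The libraries summed to between 4666559 and 6341342 expected counts, and 12598 genes had enough counts to be tested. Jun had 28.9 and 29.6 CPM (counts scaled to 1000000 per library) in c-Jun-/- libraries, against 106 and 121 CPM in wild-type libraries (log2 fold change -1.96 ± 0.12 (SE), adjusted p = 1.83e-13), so residual Jun transcript was counted. Chromosome 8 carried 6.26% and 6.31% of counts in c-Jun-/- libraries, against 4.45% and 4.48% in wild-type libraries. Of its 684 tested genes, 57.2% were higher and 1.02% lower in c-Jun-/- cells, with a median log2 fold change of 0.51, against a median of -0.01 for genes elsewhere. Cdh1, Cdh3 and Cdh11 lie on chromosome 8. The 10 primed epiblast markers were all expressed in all 4 libraries, with summed levels of 2017 and 2070.1 CPM in c-Jun-/- cells and 2273 and 2231 CPM in wild-type cells; 2 of them were higher and 7 lower in c-Jun-/- cells, with 4 lower when c-Jun-/- replicate 2 was left out and 2 lower in a limma test on log2(TPM + 1). The median log2 fold change of these primed markers was -0.31, and among all tested genes 8.21% were higher and 7.32% lower. The 9 naive stem cell markers summed to 17.3 and 18.7 CPM in c-Jun-/- libraries, against 14.6 and 13.6 CPM in wild-type libraries, and Nr0b1, Dppa3, Tcl1 and Prdm14 were at 0 in every library. Of the 4 naive markers tested, 1 was higher and 0 lower. Tbx3 had 18 and 14 counts in c-Jun-/- libraries, against 0 and 0 in wild-type libraries (adjusted p = 0.00047). It did not pass in limma on log2(TPM + 1) (1.13, adjusted p = 0.0938). Without c-Jun-/- replicate 2 its remaining 14 counts lay under the filter's total of 15, so it was not tested there.

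All 10 genes of the set passed the filter on low counts. At an adjusted p under 0.05, 3 were higher in c-Jun-/- cells (Cdh1, Cdh3 and Vim), where 8.21% of all tested genes were higher, and 2 were lower (Cdh2 and Fn1), where 7.32% of all tested genes were lower. Together 5 of the 10 were called, against 15.5% of all tested genes, and these were the 5 with the most counts. The other 5, which are Cdh11 and the 4 transcription factors, did not pass the test. Of the 7 members off chromosome 8, 1 was higher and 2 lower, against 5.4% and 7.68% of the tested genes off that chromosome. CPM ranges of the genotypes did not overlap for 7 of the 10, against 53.9% of all tested genes. The median log2 fold change over all tested genes was 0.00.

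**Figure D1:**
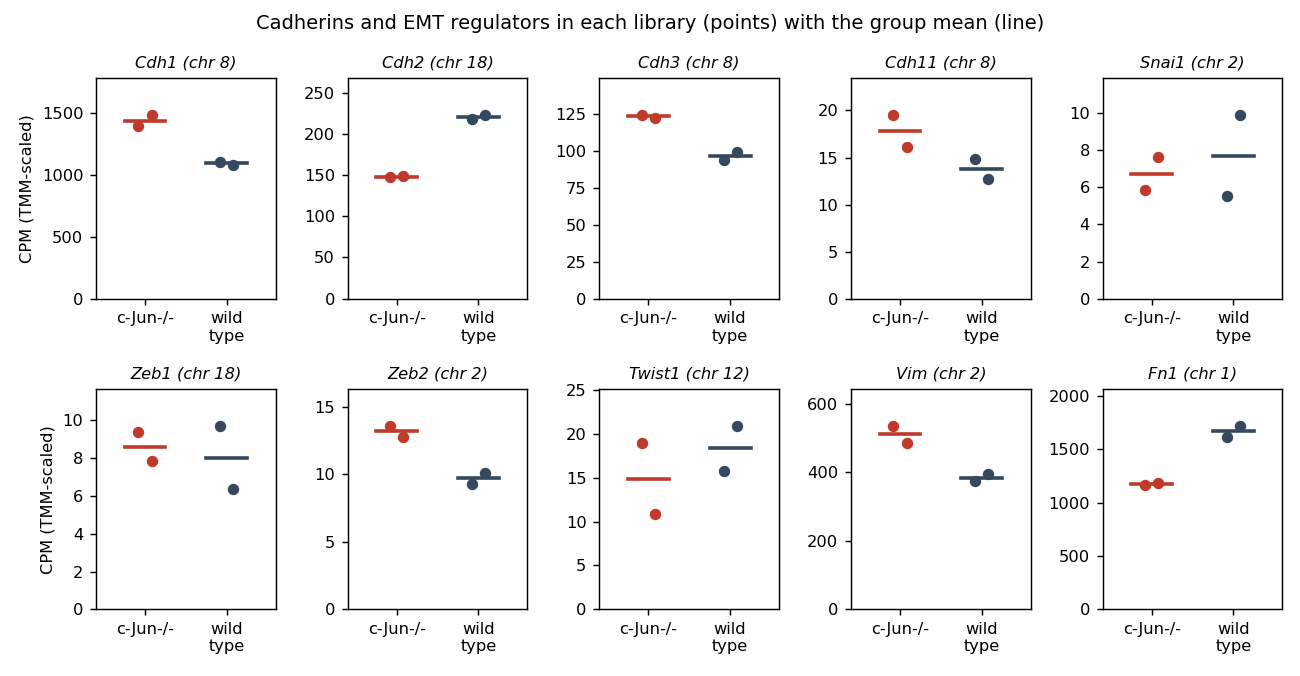
Level of each of the 10 genes in CPM on a linear axis from 0, with 1 point per library, a line at the group mean, and c-Jun-/- libraries left of wild-type libraries. Ranges overlap for Snai1, Zeb1 and Twist1 and are apart for the other 7 genes; Cdh2 and Fn1 are lower and Cdh1, Cdh3 and Vim higher in c-Jun-/- cells.

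Among the cadherins, Cdh1 and Cdh2 moved apart in c-Jun-/- cells, with more Cdh1 and less Cdh2 transcript. Cdh1 encodes E-cadherin, the adhesion molecule of epithelia and of pluripotent colonies. Cdh1 (ENSMUSG00000000303, chr8:106603351-106670246, plus strand) had 1396 and 1487 CPM in c-Jun-/- libraries, against 1108 and 1082 CPM in wild-type libraries. Both c-Jun-/- libraries lay above both wild-type libraries, and Cdh1 was 1.32-fold higher in c-Jun-/- cells (log2 fold change 0.40 ± 0.05 (SE), adjusted p = 8.76e-08). In bulk RNA, more cells with a transcript cannot be told apart from more transcript per cell.

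Cdh2 encodes N-cadherin, which mesoderm and neural cells carry. Cdh2 (ENSMUSG00000024304, chr18:16588877-16809246, minus strand) had 147 and 148.5 CPM in c-Jun-/- libraries, against 218 and 223 CPM in wild-type libraries. Replicates lay within a few CPM of each other and the genotypes did not overlap. Cdh2 in c-Jun-/- cells stood at 67.1% of its wild-type level (log2 fold change -0.58 ± 0.08, adjusted p = 8.66e-07). This direction is opposite to the gain of N-cadherin that defines a cadherin switch.

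Cdh3, or P-cadherin, is an epithelial cadherin whose gene neighbours Cdh1. Cdh3 (ENSMUSG00000061048, chr8:106510891-106557297, plus strand) had 124 and 122 CPM in c-Jun-/- libraries, against 93.3 and 98.9 CPM in wild-type libraries. The ranges were apart, with a log2 fold change of 0.36 ± 0.09 (adjusted p = 0.00596). The call was lost when wild-type replicate 2 was left out (0.31, adjusted p = 0.0571) and in limma on log2(TPM + 1) (0.31, adjusted p = 0.216). Cdh11, a cadherin of mesenchymal and bone-forming cells, lies on the same chromosome (ENSMUSG00000031673, chr8:102632095-102785642, minus strand). Cdh11 had 19.5 and 16.1 CPM in c-Jun-/- libraries, against 14.8 and 12.7 CPM in wild-type libraries. Its ranges were apart as well, but the log2 fold change of 0.38 ± 0.22 did not pass the test (adjusted p = 0.28).

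The 3 cadherin genes on chromosome 8 had log2 fold changes of nearly the same size, each below the median of the chromosome. Of the 684 tested chromosome 8 genes, 68.4% had a larger log2 fold change than Cdh1, 70% than Cdh11 and 73.8% than Cdh3. Within 1 Mb on each side of the Cdh1 start, 32 of the other 43 tested genes were higher in c-Jun-/- cells and 0 were lower, with a median log2 fold change of 0.54 (0.03 to 2.29). Chromosome 8 genes were then set relative to the chromosome's own median. The log2 differences turned negative, as they must for genes below that median, and none passed the test. Cdh1 stood at -0.12 ± 0.05 (adjusted p = 0.0966), Cdh3 at -0.16 ± 0.09 (adjusted p = 0.311) and Cdh11 at -0.13 ± 0.22 (adjusted p = 0.787). The higher Cdh1 and Cdh3 levels therefore cannot be told apart from the shift of chromosome 8 as a whole. Cdh2 lies on chromosome 18 and is outside that shift. In this centred fit 1 member was higher (Vim) and 2 were lower (Cdh2 and Fn1), against 5.17% and 7.27% of all tested genes.

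**Figure D2:**
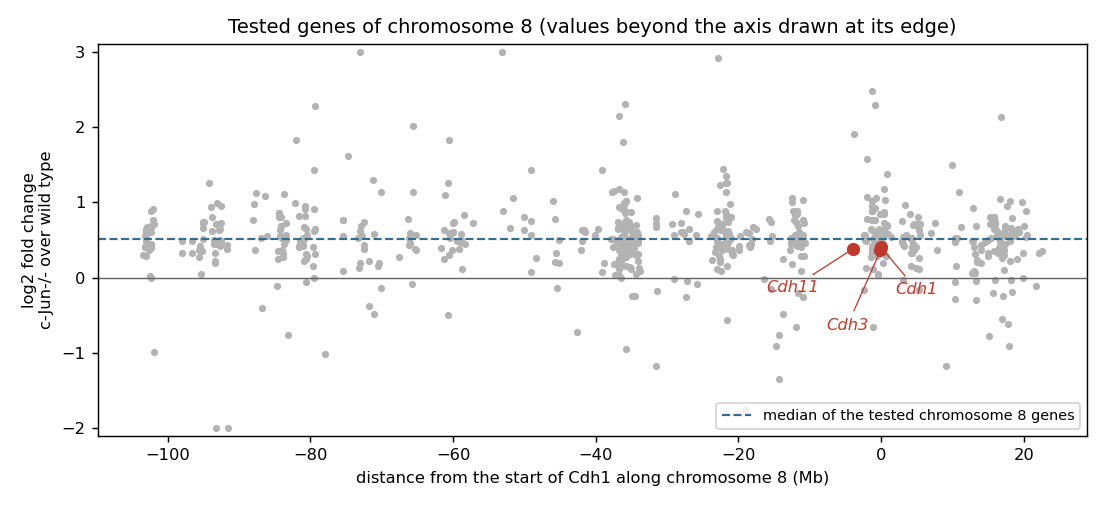
Log2 fold change (c-Jun-/- over wild type) of each tested chromosome 8 gene against its distance from the Cdh1 start in Mb, with a dashed line at the chromosome's median and values beyond the axis drawn at its edge. The marked genes Cdh1, Cdh3 and Cdh11 lie at 0.40, 0.36 and 0.38, below the median of 0.51.

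Levels per transcript length were compared in TPM (transcript numbers scaled to 1000000 per library). Cdh1 made up 75.9% and 78.5% of the summed TPM of 20 cadherins in c-Jun-/- libraries, against 69.3% and 69.5% in wild-type libraries. Cdh2 made up 8.76% and 7.85% in c-Jun-/- libraries, against 14.3% and 15.4% in wild-type libraries. The Cdh1 share was thus higher and the Cdh2 share lower in both c-Jun-/- libraries. These shares were not centred for chromosome 8, so its shift is part of them. Cdh3 held 7.52% and 6.92% of the sum in c-Jun-/- libraries, against 6.45% and 7.12% in wild-type libraries, which overlap.

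For each Cdh2 transcript there were 8.66 and 9.99 Cdh1 transcripts in c-Jun-/- libraries, against 4.84 and 4.51 in wild-type libraries. The log2 ratio of Cdh2 TPM to Cdh1 TPM averaged -3.22 ± 0.15 in c-Jun-/- libraries and -2.22 ± 0.07 in wild-type libraries (SD, n = 2 each), a difference of -0.99. An exact two-sided permutation test gave p = 0.333, the smallest value that 2 libraries against 2 allow, so this ratio could not pass a threshold of 0.05. With Cdh1 set relative to the chromosome 8 median, the difference was -0.48, in the same direction.

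**Figure D3:**
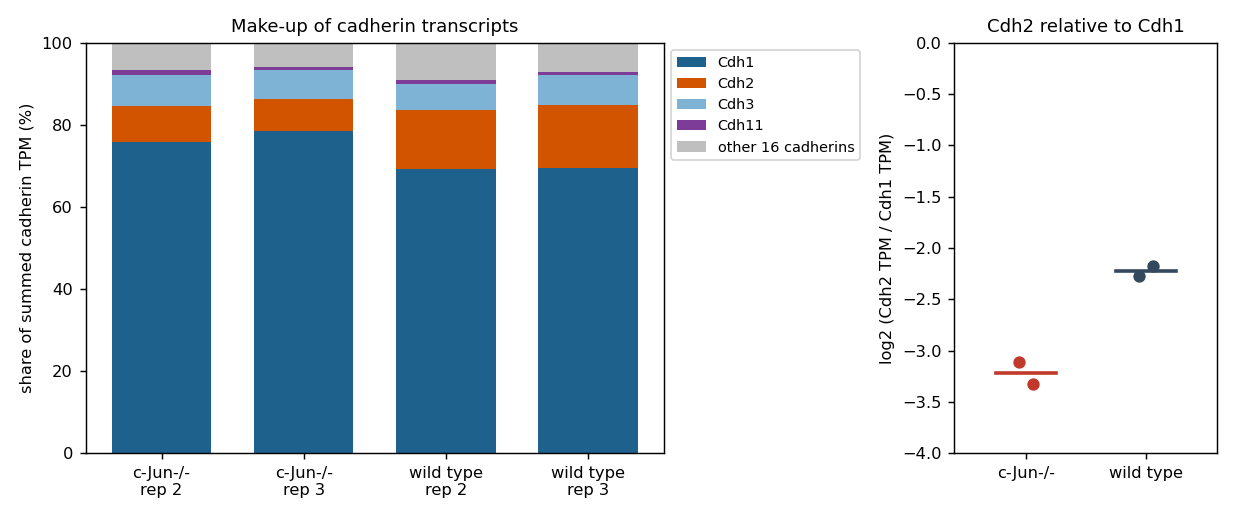
Left, stacked bars of the share (%) of the summed TPM of 20 cadherins in each library; right, log2 of Cdh2 TPM over Cdh1 TPM per library (points) with the group mean (line), c-Jun-/- libraries left of wild-type libraries. The Cdh1 share is 75.9% and 78.5% in c-Jun-/- libraries and 69.3% and 69.5% in wild-type libraries. The mean log2 ratio is -3.22 in c-Jun-/- libraries and -2.22 in wild-type libraries. Neither panel is centred for chromosome 8.

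By the named rule for similar profiles, the genes closest to Cdh1 across the 4 libraries were Pcm1, Msn and Smtn, at root mean square distances of 0.012, 0.014 and 0.016 in centred log2 CPM among 9679 genes compared. Pcm1 is also on chromosome 8, whereas Msn is on chromosome X and Smtn on chromosome 11. Closest to Cdh2 were Gm42418, Lynx1 and B4galt6, at 0.011, 0.015 and 0.021. With 4 libraries in 2 genotypes, such closeness mainly describes a genotype difference of the same size.

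Of the 13 tested genes among 14 listed catenins and junction partners, 1 was higher and 1 lower in c-Jun-/- cells. Among all tested genes, 8.21% were higher and 7.32% lower. The median log2 fold change of the list was -0.07. Ctnna1, the alpha-catenin that links the cadherin complex to actin, had 715 and 719.9 CPM in c-Jun-/- libraries, against 574 and 577 CPM in wild-type libraries (log2 fold change 0.32 ± 0.05, adjusted p = 3.04e-05). Arvcf, a catenin of the p120 family, was lower at -0.55 ± 0.15 (adjusted p = 0.00755), a call lost when c-Jun-/- replicate 2 was left out (-0.35, adjusted p = 0.216) and likewise for wild-type replicate 3 (-0.49, adjusted p = 0.0683). Ctnnb1, or beta-catenin, stood at -0.13 ± 0.05 (adjusted p = 0.0729; 0.0489 without wild-type replicate 2, 0.048 with no filter and 0.035 with no scaling factor), Ctnnd1, or p120-catenin, at 0.02 ± 0.06 (adjusted p = 0.905) and Nectin3 at -0.38 ± 0.17 (adjusted p = 0.157).

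A list of 16 further cadherins, which includes the membrane-anchored Cdh13, had 4 tested genes. Of these 0 were higher and 1 lower, against 8.21% and 7.32% of all tested genes. Cdh6 was lower, on 9 counts over both c-Jun-/- libraries against 43 over both wild-type libraries (log2 fold change -2.26 ± 0.67, adjusted p = 0.0188). The Cdh6 call was lost without c-Jun-/- replicate 2 (-1.63, adjusted p = 0.246) and, separately, with wild-type replicate 3 left out (-1.57, adjusted p = 0.424). Cdh4 at 0.29 ± 0.14, Cdh10 at -0.22 ± 0.20 and Cdh24 at -0.10 ± 0.19 did not pass. Of 12 tested proteases that cut or mature cadherins, or help to, 1 was lower and 0 higher (all tested genes: 7.32% and 8.21%). The lower one was Furin, a convertase that matures E-cadherin. Furin had 62.6 and 65.5 CPM in c-Jun-/- libraries, against 84.4 and 108 CPM in wild-type libraries (log2 fold change -0.59 ± 0.12, adjusted p = 0.000286). In limma on log2(TPM + 1) it did not pass (-0.41, adjusted p = 0.26). Mmp14 at -0.21 ± 0.10, Adam17 at 0.21 ± 0.10, Psen2 at -0.35 ± 0.19 and the E-cadherin sheddase Adam10 at 0.06 ± 0.11 did not pass.

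The 4 transcription factors were scarce transcripts in both genotypes, and no change in any of them passed the test. Snai1 encodes Snail, which represses Cdh1 at gastrulation. Snai1 (ENSMUSG00000042821, chr2:167538195-167542814, plus strand) had 5.87 and 7.61 CPM in c-Jun-/- libraries, against 5.54 and 9.89 CPM in wild-type libraries. The wild-type libraries enclosed both c-Jun-/- libraries, and the log2 fold change was -0.21 ± 0.36 (adjusted p = 0.775). Twist1, a factor of mesoderm and neural crest (ENSMUSG00000035799, chr12:33957671-33959829, plus strand), had 18.9 and 10.9 CPM in c-Jun-/- libraries, against 15.8 and 20.9 CPM in wild-type libraries. Here c-Jun-/- replicate 3 was the lowest library and the other c-Jun-/- library lay among the wild types (log2 fold change -0.28 ± 0.24, adjusted p = 0.505).

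The ZEB factors repress Cdh1 and act downstream of TGF-beta. Zeb1 (ENSMUSG00000024238, chr18:5591860-5775467, plus strand) had 9.36 and 7.83 CPM in c-Jun-/- libraries, against 9.69 and 6.34 CPM in wild-type libraries. These ranges overlapped (log2 fold change 0.11 ± 0.33, adjusted p = 0.877). Zeb2 (ENSMUSG00000026872, chr2:44983632-45117395, minus strand) had 13.6 and 12.8 CPM in c-Jun-/- libraries, against 9.3 and 10.1 CPM in wild-type libraries. Its ranges were apart, but the log2 fold change of 0.45 ± 0.26 did not pass the test (adjusted p = 0.277).

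For both ZEB genes counts and TPM gave different ratios, because TPM divides by a deposited mean transcript length that differed between the genotypes. The length given for Zeb1 was 2557 and 2756 bases in c-Jun-/- libraries, against 4310.1 and 5138 bases in wild-type libraries, over 9 listed transcripts. Its log2 ratio of c-Jun-/- to wild type was accordingly 0.91 in TPM and 0.10 in CPM. For Zeb2, with 14 listed transcripts, the length was 5757 and 4458 bases in c-Jun-/- libraries, against 3168 and 3447 bases in wild-type libraries, and the log2 ratio was -0.24 in TPM and 0.45 in CPM. RSEM takes these lengths from its split of reads over transcripts, which here rests on 34 to 59 counts per library for Zeb1 and 47 to 86 for Zeb2. The antisense-strand gene Gm10125 overlaps the span of Zeb1, introns included. It had 35.6 and 51.2 counts in c-Jun-/- libraries, against 41.9 and 37.4 in wild-type libraries. The expected counts of Zeb1 were whole numbers, 59 and 36 in c-Jun-/- libraries and 49 and 34 in wild-type libraries. Strand is not stated, and an overlap of exons between these genes was not tested.

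**Figure D4:**
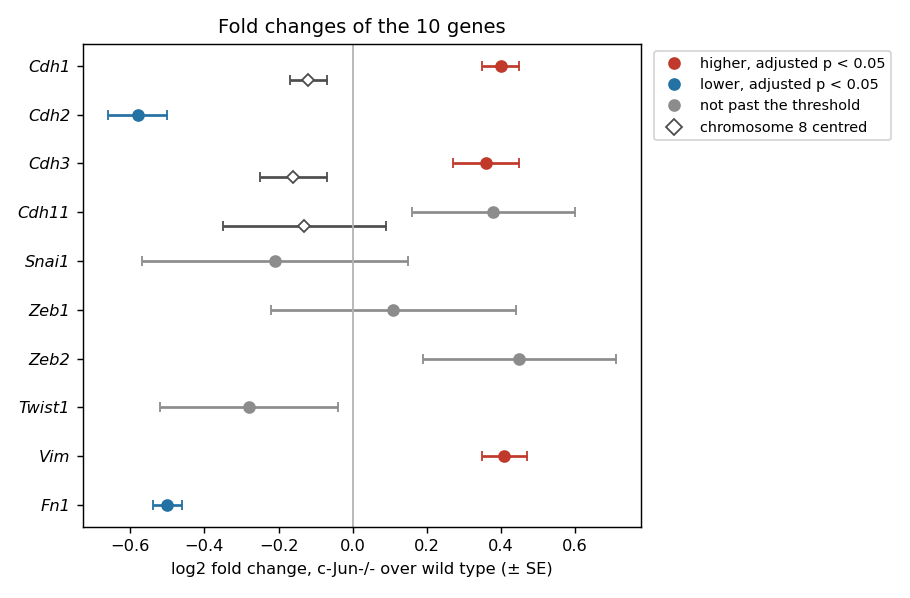
Log2 fold change (c-Jun-/- over wild type) of each of the 10 genes with its standard error, from edgeR, coloured by call; open diamonds give the 3 chromosome 8 genes after centring on that chromosome's median. Cdh2 at -0.58 and Fn1 at -0.50 are lower, Cdh1 at 0.40, Cdh3 at 0.36 and Vim at 0.41 are higher, and the 3 diamonds lie below 0.

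Of 16 further EMT transcription factors, 12 were tested. Against 8.21% and 7.32% of all tested genes, 2 of them were higher and 3 lower. The median log2 fold change was -0.04. Hmga2, a chromatin protein that acts upstream of Snai1 and Twist1 in TGF-beta-driven EMT, had 172 and 148 CPM in c-Jun-/- libraries, against 59.3 and 50.7 CPM in wild-type libraries (log2 fold change 1.55 ± 0.10, adjusted p = 1.30e-12). Gsc, a homeobox factor of the anterior streak, had 6.82 and 3.48 CPM in c-Jun-/- libraries, against 20.2 and 23.1 CPM in wild-type libraries (log2 fold change -2.02 ± 0.28, adjusted p = 1.84e-06; -2.63 without c-Jun-/- replicate 2). Eomes, a T-box factor of the streak that acts on EMT at gastrulation, was lower at -0.48 ± 0.11 (adjusted p = 0.00131). The streak gene T was at 0.02 ± 0.05 (adjusted p = 0.811), so these streak genes did not share a direction that passed the test. Snai3 on chromosome 8 was higher at 0.80 ± 0.18 (adjusted p = 0.00211), but at 0.29 relative to its chromosome (adjusted p = 0.367). Sox4 was lower at -0.27 ± 0.09 (adjusted p = 0.0317), a call lost without c-Jun-/- replicate 2 (adjusted p = 0.356), wild-type replicate 2 (0.0659) or wild-type replicate 3 (0.136).

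A list held 19 corepressors of these factors and enzymes that turn them over, all tested, with a median of -0.11. Against 8.21% and 7.32% of all tested genes, 1 was higher and 1 lower. They were both CtBP corepressors, the partners of ZEB proteins at Cdh1: Ctbp2 was at 0.36 ± 0.07 (adjusted p = 0.000282) and Ctbp1 at -0.28 ± 0.09 (adjusted p = 0.029). The Ctbp1 call was lost when replicate 3 of c-Jun-/- (adjusted p = 0.271) or of wild type (adjusted p = 0.151) was left out. The kinase gene Pak1 at 0.42 ± 0.15 (adjusted p = 0.0606) and the histone methyltransferase gene Ehmt2 at -0.24 ± 0.10 (adjusted p = 0.0927) did not pass.

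Of 18 tested genes that carry TGF-beta and Notch inputs to these factors, 0 were higher and 5 lower. Over all tested genes, 8.21% were higher and 7.32% lower. The median log2 fold change of the list was -0.04. Tgfbr3, or betaglycan, a coreceptor that presents TGF-beta ligands, had 23.3 and 25.7 CPM in c-Jun-/- libraries, against 67.6 and 66.4 CPM in wild-type libraries (log2 fold change -1.46 ± 0.14, adjusted p = 2.30e-09). Notch2, a Notch receptor, had 113 and 116 CPM in c-Jun-/- libraries, against 199 and 202 CPM in wild-type libraries (log2 fold change -0.81 ± 0.08, adjusted p = 4.93e-09). The Notch ligand gene Jag1 at -0.67 ± 0.13 (adjusted p = 0.000225) and the type I receptor gene Tgfbr1 at -0.46 ± 0.11 (adjusted p = 0.00329) were lower too. The list had 4 genes lower in DESeq2 and 2 in limma on log2(TPM + 1). In limma, Jag1 (-0.47, adjusted p = 0.316) and Tgfbr1 (-0.45, adjusted p = 0.248) did not pass. The fifth, the HGF receptor gene Met, was lower at -0.74 ± 0.22 (adjusted p = 0.0173), a call lost without wild-type replicate 3 (-0.46, adjusted p = 0.328), in DESeq2 (-0.74, adjusted p = 0.149) and in limma on log2(TPM + 1) (-0.12, adjusted p = 0.841).

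Vim and Fn1, often read together as mesenchymal products, went opposite ways. Vim encodes vimentin, the main intermediate filament of mesenchymal cells, which is also abundant in epiblast stem cells. Vim (ENSMUSG00000026728, chr2:13573927-13582826, plus strand) had 536 and 487 CPM in c-Jun-/- libraries, against 373 and 396 CPM in wild-type libraries. Both c-Jun-/- libraries were above both wild types, and Vim was 1.33-fold higher in c-Jun-/- cells (log2 fold change 0.41 ± 0.06, adjusted p = 5.75e-06). A limma test on log2(TPM + 1) gave 0.36 and an adjusted p of 0.0835.

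Fn1 encodes fibronectin, a matrix protein that integrins bind and assemble into fibrils. Fn1 (ENSMUSG00000026193, chr1:71585520-71653200, minus strand) had 1169.8 and 1184 CPM in c-Jun-/- libraries, against 1617 and 1719 CPM in wild-type libraries. The c-Jun-/- libraries were both low and close together, at 70.6% of the wild-type level (log2 fold change -0.50 ± 0.04, adjusted p = 5.00e-10). The call on Fn1 and that on Cdh2 held in all 12 alternative fits. The log2 ratio of Fn1 TPM to Vim TPM was -0.57 and -0.46 in c-Jun-/- libraries, against 0.47 and 0.31 in wild-type libraries, so Vim was the more abundant of the pair in c-Jun-/- cells and Fn1 in wild-type cells.

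Within each genotype the 10 genes covered a wide range of TPM. In c-Jun-/- cells Cdh1 led with a mean of 617.5 TPM, ahead of Vim at 461, Fn1 at 322, Cdh2 at 66.4, Cdh3 at 57.7, Twist1 at 18.7, Snai1 at 8.4, Cdh11 at 7.85, Zeb1 at 6.25 and Zeb2 at 4.83 TPM. Neighbours whose libraries overlapped in that order were Snai1 with Cdh11 and Cdh11 with Zeb1. In wild-type cells Cdh1 at 476 and Fn1 at 470.0 TPM overlapped, ahead of Vim at 358, Cdh2 at 102, Cdh3 at 46.4, Twist1 at 23.7, Snai1 at 9.91, Cdh11 at 6.25, Zeb2 at 5.69 and Zeb1 at 3.33 TPM. The ranges of Cdh11 and Zeb2 overlapped there too. In both genotypes, E-cadherin transcript was thus far above each of the 4 transcription factors of the set. The streak gene T, from the list of further EMT factors, stood above it. Its mean was 1237.6 TPM in c-Jun-/- cells and 1222.8 TPM in wild-type cells.

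Of the 34 epithelial genes tested among 35 listed, 5 were higher and 5 lower, against 8.21% and 7.32% of all tested genes. The median log2 fold change of the list was -0.11. The lower genes included 2 keratins and a claudin. Krt18 had 235 and 231 CPM in c-Jun-/- libraries, against 319 and 329 CPM in wild-type libraries (log2 fold change -0.48 ± 0.07, adjusted p = 2.15e-06). Its filament partner Krt8 was at -0.36 ± 0.06 (adjusted p = 6.07e-05), and the tight junction gene Cldn6 at -0.51 ± 0.07 (adjusted p = 6.57e-06). On the higher side, Ap1m2, a subunit of the epithelial sorting adaptor, had 37.4 and 33.9 CPM in c-Jun-/- libraries, against 13.6 and 22.2 CPM in wild-type libraries (log2 fold change 0.99 ± 0.19, adjusted p = 0.000286). Epcam stood at -0.01 ± 0.06 (adjusted p = 0.924) and the splicing factor gene Esrp1 at -0.17 ± 0.09 (adjusted p = 0.197). The higher count fell to 3 without c-Jun-/- replicate 2, c-Jun-/- replicate 3 or wild-type replicate 3, and to 3 with chromosome 8 set to its own median.

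Of 27 tested mesenchymal genes among 32 listed, 8 were higher and 6 lower, against 8.21% and 7.32% of all tested genes. The median of the list was 0.19. Cnn1, the smooth muscle calponin, had 11.7 and 10.2 CPM in c-Jun-/- libraries, against 0.989 and 1.31 CPM in wild-type libraries (log2 fold change 3.23 ± 0.46, adjusted p = 2.86e-06). S100a6, a calcium-binding protein, had 10.8 and 10.4 CPM in c-Jun-/- libraries, against 1.78 and 1.87 CPM in wild-type libraries (log2 fold change 2.53 ± 0.42, adjusted p = 3.58e-05). Msn, which ties actin to the membrane, was higher at 0.40 ± 0.06 (adjusted p = 9.32e-06). The matrix protein gene Sparc was lower, with 443 and 468 CPM in c-Jun-/- libraries, against 609 and 658 CPM in wild-type libraries (log2 fold change -0.48 ± 0.06, adjusted p = 1.59e-07). The lower count was 3 without c-Jun-/- replicate 2 and 4 without either wild-type library. The epithelial and the mesenchymal list each held genes called in both directions.

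Of 17 tested genes whose products bind or assemble fibronectin, 1 was higher and 7 lower, against 8.21% and 7.32% of all tested genes. The median of the list was -0.23. Itga5, the alpha subunit of the classical fibronectin receptor, had 46.1 and 43.5 CPM in c-Jun-/- libraries, against 66.4 and 72.8 CPM in wild-type libraries (log2 fold change -0.63 ± 0.12, adjusted p = 0.000288). Its partner Itgb1, on chromosome 8, was higher at 0.32 ± 0.05 (adjusted p = 4.55e-05), and at -0.19 relative to its chromosome (adjusted p = 0.0156), which turns its direction. Itgb3 was at -0.83 ± 0.21 (adjusted p = 0.00465) and Fbln1 at -0.49 ± 0.12 (adjusted p = 0.00524), the Fbln1 call being lost without c-Jun-/- replicate 2 (-0.29, adjusted p = 0.237). The others lower were Itgb5, Sdc2, Sdc4 and Fermt2. In limma on log2(TPM + 1), 0 genes of this list were higher and 0 lower. The Itgb3 call was also lost in DESeq2 (adjusted p = 0.0598). The lower count depended on the tool and the libraries: DESeq2 called 1 gene higher and 1 lower, and edgeR called 4 lower without c-Jun-/- replicate 2 or without c-Jun-/- replicate 3.

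Among 14 tested partners of intermediate filaments, 2 were higher and 2 lower, against 8.21% and 7.32% of all tested genes. The median of the list was 0.10. Both lower genes were the keratins Krt8 and Krt18. Dst, a linker between filaments and adhesion sites, had 428 and 385 CPM in c-Jun-/- libraries, against 207 and 283 CPM in wild-type libraries (log2 fold change 0.73 ± 0.09, adjusted p = 1.32e-07). Lmnb1, a nuclear lamin, was at 0.23 ± 0.07 (adjusted p = 0.0239), a call lost when replicate 2 of c-Jun-/- (adjusted p = 0.301) or of wild type (adjusted p = 0.148) was left out.

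**Figure D5:**
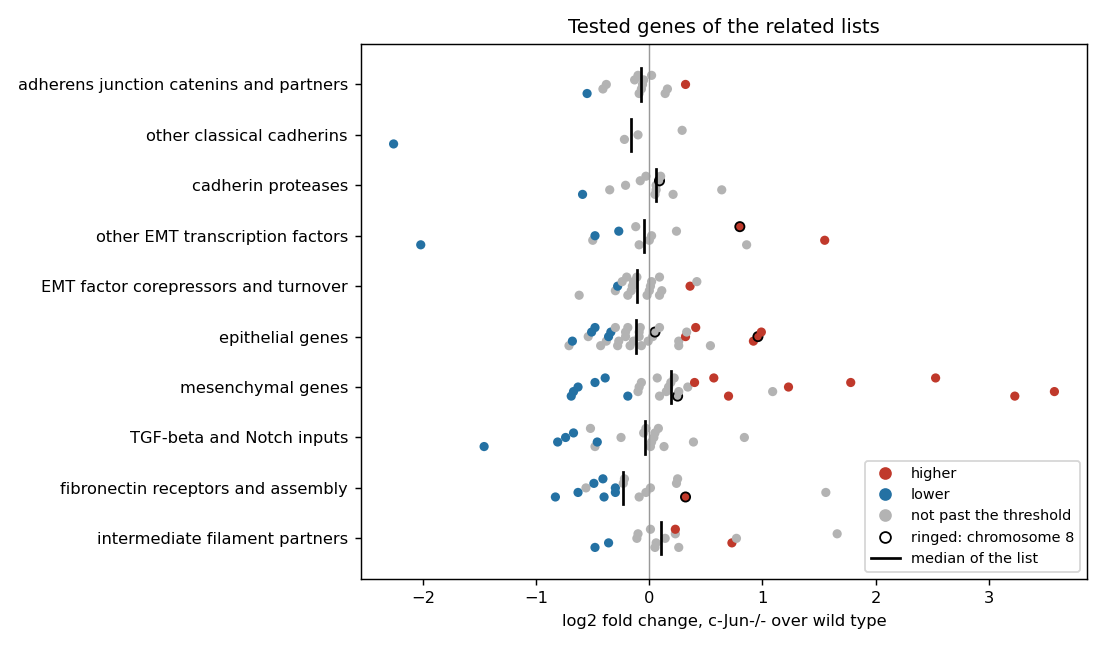
Log2 fold change (c-Jun-/- over wild type) of every tested gene in each related list (points coloured by call, chromosome 8 genes ringed), with a line at the list's median. The lists have genes on both sides of 0, and their medians run from -0.23 for fibronectin receptors and assembly to 0.19 for mesenchymal genes.

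Markers of other cell types were read beside these lists. Their counts of calls stand beside 8.21% higher and 7.32% lower among all tested genes. Fibroblast markers summed to 92.3 and 85 CPM in c-Jun-/- libraries, against 86.6 and 83.4 CPM in wild-type libraries; 8 of 13 were tested, 2 were higher and 2 lower, and the median log2 fold change was 0.50. The collagen gene Col3a1 had 7.3 and 4.57 CPM in c-Jun-/- libraries, against 0.396 and 0.56 CPM in wild-type libraries (log2 fold change 3.58 ± 0.66, adjusted p = 0.000149), and the fibrillin gene Fbn1 was higher at 1.23 ± 0.29 (adjusted p = 0.00262; 0.0889 without c-Jun-/- replicate 2). The matrix genes Postn at -1.28 ± 0.24 (adjusted p = 0.000199) and Dcn at -1.58 ± 0.49 (adjusted p = 0.0222; 0.134 without c-Jun-/- replicate 2 and 0.236 without wild-type replicate 3) were lower. The more abundant collagen genes Col1a1 at -0.10 ± 0.21 (adjusted p = 0.83) and Col1a2 at 0.22 ± 0.19 (adjusted p = 0.518) did not pass. Among streak and mesoderm markers, T alone had 798 and 820 CPM in c-Jun-/- libraries, against 793 and 797 CPM in wild-type libraries. The sums of that list, given next, are therefore mostly T. Streak and mesoderm markers summed to 920.0 and 935 CPM in c-Jun-/- libraries, against 926 and 932 CPM in wild-type libraries, with 1 higher (0 without c-Jun-/- replicate 2 or without wild-type replicate 3), 1 lower and Mesp1 at 0 in every library. Extraembryonic endoderm markers summed to 199 and 199 CPM in c-Jun-/- libraries, against 218 and 232 CPM in wild-type libraries, with 0 higher, 2 lower (1 when any library except wild-type replicate 2 was left out) and Afp and Ttr at 0. Neural and neural crest markers summed to 358 and 405 CPM in c-Jun-/- libraries, against 366 and 369.6 CPM in wild-type libraries, with 3 higher, 1 lower and Tfap2b at 0. Of the 3 higher, Sox1 and Tubb3 lie on chromosome 8. With that chromosome centred 1 was higher, Tubb3 at 1.62 (adjusted p = 0.0231), while Sox1 stood at 0.74 (adjusted p = 0.0546); with its genes removed 0 were higher. The third, Pax6, at 2.13 ± 0.74 (adjusted p = 0.049), rested on 32 counts over both c-Jun-/- libraries against 7 over both wild-type libraries and did not pass whichever library was left out (adjusted p 0.0837 to 0.482). The part of any of these cell types in the differences above was not tested.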

How the data were processed

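RNA-seq of 4 libraries, 2 per genotype, was analysed, with groups taken from the genotype labels. Per the labels' protocols, RNA was prepared with TRIzol and a TruSeq RNA kit and sequenced on an Illumina NextSeq; strand is not stated. Per the submitters' processing notes, bcl2fastq, Bowtie2, RSEM and mm10 were used; their versions and options are not given in the sources. The authors' RSEM gene tables hold, per the file headers, an expected count (an estimate that shares ambiguous reads out among genes), a TPM, an FPKM and a transcript length. The deposited expected counts carry no scaling between libraries, and the deposited TPM values are scaled to 1000000 per library and by length. The deposited FPKM values were not tested.

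Of 29267 gene identifiers, 28756 matched a symbol in GENCODE M21 (GRCm38, the assembly mm10 names). Expected counts were rounded to whole numbers, filtered by filterByExpr (minimum count 10, total 15) and scaled by TMM, which left 12598 genes. Genotypes were compared with edgeR 4.0.16 (R 4.3.3), by its quasi-likelihood F test with Benjamini-Hochberg adjustment over all tested genes and a threshold of 0.05; every adjusted p is from this test unless another tool is named. Each ± beside a log2 fold change is a standard error. CPM is computed from TMM-scaled library sizes. Alternatives used DESeq2 1.42.0, limma 3.58.1 on log2(TPM + 1), other scalings and filters, a replicate block, single libraries left out, and chromosome 8 genes centred on their median or removed. The edgeR step was tested on simulated counts. The biological coefficient of variation was 6.5%, and 3 counts equal 0.476 to 0.652 CPM per library. No library repeated another of its genotype: chi-square divided by its degrees of freedom was 2.51 in c-Jun-/- and 2.54 in wild type.

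The members, lists and tests were chosen with earlier results of these data known. Named genes are the 10 members, Jun, up to 4 tested genes with the smallest p from each list, and the 3 genes closest to Cdh1 and to Cdh2 among those with a mean CPM of at least 10. Ctnnd1, Adam10, T, Sox4, Met, Epcam, Esrp1, Itgb5, Sdc2, Sdc4, Fermt2, Col1a1, Col1a2 and the markers at 0 were named after their values were seen.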

Additional observations from a re-analysis of the deposited data

How the results depend on the processing

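Against 1034 genes higher and 922 lower in c-Jun-/- cells, DESeq2 called 650 higher and 473 lower, and limma on log2(TPM + 1) called 250 higher and 170 lower. In limma 0 genes passed in the lists of catenins, proteases and corepressors, and epithelial genes gave 0 higher and 2 lower. Mesenchymal genes gave 2 higher and 1 lower there, and further EMT factors 1 and 1. Calls lost in limma included Ctnna1 (adjusted p = 0.0871), Furin (0.26), Eomes (0.117), Ctbp2 (0.149), Krt8 (0.0556), Ap1m2 (0.108) and Msn (0.0741). DESeq2 did not call Arvcf (adjusted p = 0.077), Cdh6 (0.113) or Ctbp1 (0.148). With chromosome 8 centred 651 genes were higher, and with its genes removed 668 were. The count of members higher was 1 rather than 3 with limma, with chromosome 8 centred and with chromosome 8 genes removed; the last 2 of these take away or shift Cdh1 and Cdh3 by construction. With chromosome 8 centred the log2 fold changes of Cdh1, Cdh3 and Cdh11 reversed to -0.12, -0.16 and -0.13. Their place below the chromosome's median fixed that sign. Transcription factors that had not passed the test also reversed: Zeb2 to -0.20 in limma on TPM, and 3 with single libraries left out, namely Snai1 (-0.57 without wild-type replicate 2 to 0.27 without wild-type replicate 3), Zeb1 (-0.03 without c-Jun-/- replicate 2, -0.16 without wild-type replicate 3, up to 0.44 without wild-type replicate 2) and Twist1 (-0.75 without c-Jun-/- replicate 2 to 0.04 without c-Jun-/- replicate 3). The cause was not tested. Leaving out each library in turn gave 835 to 888 genes higher, 633 to 757 lower, 2 to 3 members higher, 2 members lower, and a Cdh2 to Cdh1 balance of -1.10 to -0.89. Deviations of same-numbered libraries from their group means had a correlation of 0.0202. With 2 libraries per genotype these deviations mirror each other, so both numbers give the same single value. The numbers were not read as pairs. The replicate block gave 1250 genes higher and 1127 lower, with 3 members higher and 2 lower. It brought Ctnnb1 (adjusted p = 0.00758) and Pak1 (adjusted p = 0.0409) past the threshold. The 5 members that did not pass, Cdh11 and the transcription factors, had at most 123 counts in any library.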
